A study of Homo sapiens with 12 samples.

Results

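The genes described here are the replication-dependent histone genes of T47D-MTVL breast cancer cells, as measured after depletion of the chromatin remodeler CHD8 and stimulation with a progestin. They were taken by name: each probe set annotated with exactly 1 gene symbol beginning with H1-, H2AC, H2BC, H3C or H4C, with pseudogenes left out, was a member. This gave 61 of the 18417 genes that have such a probe set, each with 1 probe set. Of these, 60 are histone genes (9 H1, 14 H2A, 16 H2B, 8 H3 and 13 H4). The other is H1-10-AS1, an RNA antisense to the H1-10 gene, which codes for no histone and entered by its name alone. The names also take in 6 histone genes that are not of the replication-dependent kind or belong to germ cells, namely H1-10, H1-6, H1-7, H1-8, H2AC1 and H2BC1, so 54 members carry the label strictly.

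T47D-MTVL is a human breast cancer line with a progesterone receptor and a single integrated MMTV-Luc reporter, and the study asked how CHD8 takes part in the transcriptional response to progestin in it. Cells received an siRNA against CHD8 (siCHD8) or a control siRNA (siCt), were kept in serum-free medium for 48 h and were then given the synthetic progestin R5020 at 10 nM or the ethanol vehicle (EtOH) for 6 h. The 4 conditions were therefore siCHD8 with R5020, siCHD8 with EtOH, siCt with R5020 and siCt with EtOH, each with 3 arrays of an Affymetrix Human Gene ST platform. The labels call the arrays biological replicates, but nothing says that they came from separate cultures, so p-values measure the spread between these samples, in 1 cell line.

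Replication-dependent histone genes supply the core histones H2A, H2B, H3 and H4, around which DNA is wrapped, and the linker histones H1, which bind where DNA enters and leaves that core. They are transcribed in S phase under the coactivator NPAT, and their mRNAs end in a stem-loop bound by SLBP instead of a poly(A) tail. CHD8 has been reported to bind histone H1. The sources used here do not give how the RNA was primed for labelling, which matters for mRNAs without a poly(A) tail. In bulk RNA, fewer cells in S phase and less histone RNA per cell cannot be told apart. Many of these genes are near-identical copies, so probe sets can pick up RNA of a neighbour. H4C14 and H4C15 held the same 12 values, and the rows of 8 members shared a transcript accession with another row.

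Promoter sequence was available for 55 of the 61 members, in RefSeq windows of 300 bases that run from 250 before to 50 after the gene start (build GRCh38.p14). By these windows 44 members lay on chromosome 6, 7 on chromosome 1, 2 on chromosome 3 and 2 on chromosome 12. The 150 bases before the start are printed for H1-3, the member with the clearest difference in these data, for 3 other H1 genes of its cluster, and for H3C1 and H2BC14, which are followed through the results. Each is written 5′ to 3′ on the gene's strand. Capitals mark CCAAT or its reverse complement, TATAAA, the H1 box AAACACA and the octamer ATTTGCAT, each searched on both strands.
H1-3 (chr6:26234988-26235137, minus strand): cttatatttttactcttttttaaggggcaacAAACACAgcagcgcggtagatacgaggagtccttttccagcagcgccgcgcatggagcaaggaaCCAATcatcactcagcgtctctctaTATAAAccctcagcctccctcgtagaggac
H1-5 (chr6:27867589-27867738, minus strand): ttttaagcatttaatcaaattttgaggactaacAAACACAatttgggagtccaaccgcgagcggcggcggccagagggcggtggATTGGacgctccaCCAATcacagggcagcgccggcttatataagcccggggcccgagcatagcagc
H1-4 (chr6:26156179-26156328, plus strand): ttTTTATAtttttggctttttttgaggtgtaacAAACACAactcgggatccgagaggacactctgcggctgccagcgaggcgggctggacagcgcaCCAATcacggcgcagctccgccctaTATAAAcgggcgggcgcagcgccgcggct
H1-2 (chr6:26056471-26056620, minus strand): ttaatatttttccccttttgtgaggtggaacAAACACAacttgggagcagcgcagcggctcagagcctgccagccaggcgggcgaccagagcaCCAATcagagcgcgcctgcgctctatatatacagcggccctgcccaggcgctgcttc
H3C1 (chr6:26020301-26020450, plus strand): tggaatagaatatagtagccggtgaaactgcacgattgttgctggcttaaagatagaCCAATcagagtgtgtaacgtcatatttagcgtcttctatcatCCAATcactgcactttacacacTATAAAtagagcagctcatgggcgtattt
H2BC14 (chr6:27814872-27815021, plus strand): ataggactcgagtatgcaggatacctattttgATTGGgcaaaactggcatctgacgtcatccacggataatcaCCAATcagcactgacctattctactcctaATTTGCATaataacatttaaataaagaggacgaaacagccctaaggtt
The 4 H1 genes share 1 layout, with AAACACA far from the start and CCAAT nearer to it. The 55 members have 58 windows, and a member was counted when any of its windows matched. The share of all is per window. CCAAT was found for 46 of the 55 members (83.6%), against 34.6% of all 35116 RefSeq windows. TATAAA was found in 35 (63.6%, against 11.5%). ATTTGCAT was found in 23 (41.8%, against 1.77%), of which 13 were H2B genes and 10 H2A genes, and in 0 windows of H1, H3 or H4. AAACACA was found in 8 (14.5%, against 5.64%), of which 7 were H1 genes. These are matches of letters and were not measured as bound sites.

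TGTTCT, one side of the palindrome that steroid receptors bind, was found for 15 members (27.3%, against 14.8% of all windows). The H1-3 window was then read further, and a search for the whole palindrome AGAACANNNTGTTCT was chosen after it had been seen. Allowing 1 difference in its 12 fixed letters, 1 of the 55 members had a match, H1-3, and 58 of the 35116 windows did (0.165%). The H1-3 match lies at chr6:26234978-26234992 on the minus strand, over the gene start, from base -5 to base 10, and reads AGGACAtgcTGTTCT. It differs from the palindrome by A3G, counted from 1 at the palindrome's 5′ end. Binding of the receptor there was not measured in these data.

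The arrays of 1 condition correlated at 0.989 to 0.996 over all probe sets. CHD8 itself was at 4.62 to 4.81 (log2 intensity) in siCHD8 with R5020, against 5.24 to 5.52 in siCt with R5020, and at 5.04 to 5.42 in siCHD8 with EtOH, against 5.70 to 5.91 in siCt with EtOH. The groups did not overlap, but the log2 differences of -0.62 (adjusted p = 0.0627) and -0.58 (adjusted p = 0.0711) did not pass 0.05 over all genes. R5020 lowered CHD8 itself by a log2 difference of -0.46 in siCHD8 cells (adjusted p = 0.0258) and -0.42 in siCt cells (adjusted p = 0.0349), and each call was lost in 7 of 22 alternatives. Its part in the R5020 values of the histone genes was not tested. Of 12 luminal epithelial markers, 11 were above the median of all probe sets, as were 1 of 8 fibroblast markers (COL1A1, at 5.48) and 0 of 7 blood and endothelial markers, whose mean level was between 2.15 and 2.33 on every array. The array that stood farthest from its replicates over the histone genes was siCt EtOH replicate 3, with a root mean square distance of 0.401 on the log2 scale, against 0.166 to 0.304 on the other arrays.

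Of the 60 histone genes, 34 had a mean over the 12 arrays above the median of all probe sets tested, which was 4.59, and 26 had one below it. The 34 were 6 of 9 H1, 6 of 14 H2A, 9 of 16 H2B, 6 of 8 H3 and 7 of 13 H4 genes. An intensity depends on the probes as well as on the RNA, so these means show which members were read well and give no order of RNA amount between genes. H1-4, a main somatic linker histone, averaged 10.99, and H2BC12, H2BC14 and H2BC9 averaged 9.78, 8.76 and 8.19. The H2A genes H2AC20, H2AC21 and H2AC6 averaged 8.29, 7.95 and 7.34. H3C2, H3C11 and H3C10, which all encode H3.1, averaged 7.91, 7.89 and 7.11, and the H4 genes H4C3, H4C8 and H4C5 averaged 9.49, 9.18 and 7.97. H1-1, H4C13, H2AC1 and H2BC10 averaged 2.20, 1.87, 1.71 and 1.65, below the median of all probe sets.

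**Figure D1:**
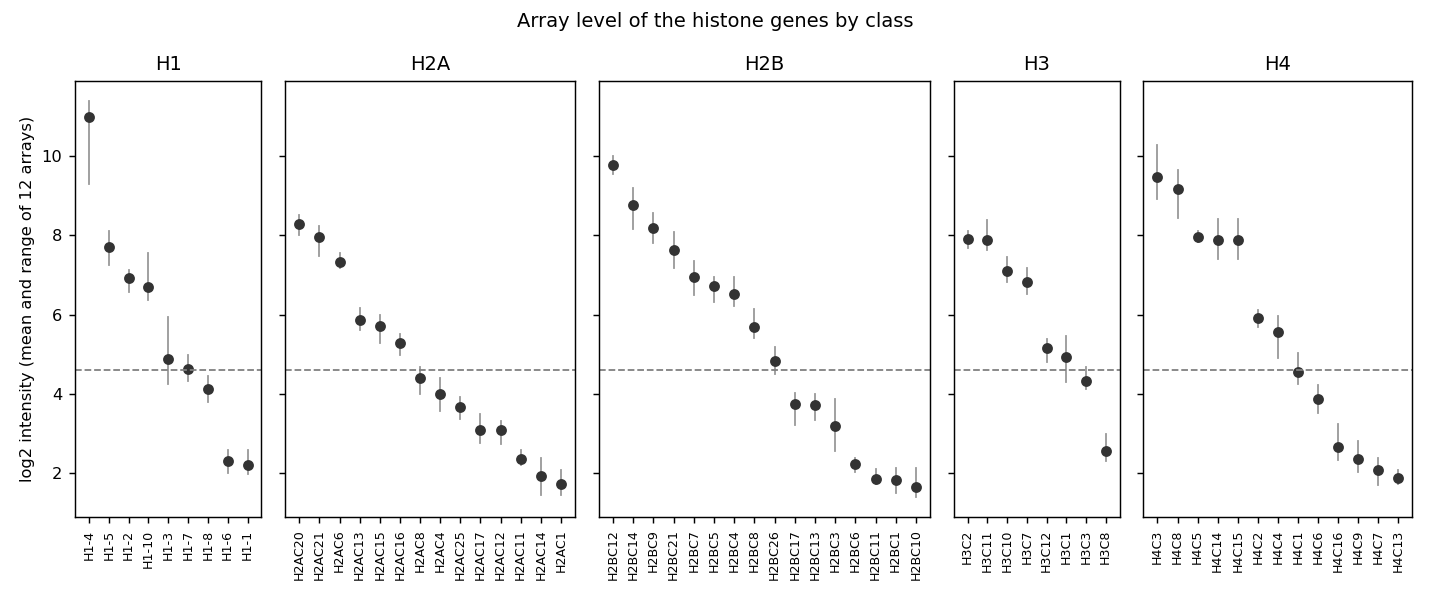
Log2 intensity of the 60 histone genes, 1 panel per class; points are means of the 12 arrays, vertical lines run from the lowest to the highest array, and the dashed line is the median of all probe sets tested (4.59). In every class some genes lie well above that line and others far below it, and the mean of H1-4 is 10.99.

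In siCHD8 cells, R5020 lowered 3 histone genes (H1-3, H4C6 and H4C16) and raised none at an adjusted p under 0.05, so 3 of 61 members were called (4.92%), against 11.5% of all probe sets called and 5.43% called lower. In siCt cells it lowered 2 (H1-3 and H3C1) and raised none, so 2 of 61 were called (3.28%), against 14.1% of all probe sets called and 6% called lower. Neither count of members stands above these background shares, and H1-3 was the 1 member that passed under both siRNAs. At an unadjusted p under 0.05 limma gave 8 members in siCHD8 cells (13.1%, against 22.4% of all) and 7 in siCt cells (11.5%, against 27.9%). At the limits the study used (fold over 1.5 and adjusted p under 0.01), 1 member passed in siCHD8 cells, H4C16 (5.6% of all did), and 2 in siCt cells, H1-3 and H3C1 (6.55% of all did). The median log2 difference of the members was -0.02 in siCHD8 cells, as was that of all probe sets. For siCt cells the median was -0.15, against -0.05 for all, and centring each array on its median brought the members' value to -0.10. Centring shifts every probe set of an array alike, so the distance between the members and all probe sets stayed the same.

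H1-3 encodes one of the linker histones made in S phase. With R5020 it had log2 intensities of 4.58, 4.42 and 4.33 in siCHD8 cells, against 5.01, 5.04 and 4.97 in siCHD8 cells with EtOH. The siCt values were 4.59, 4.34 and 4.24 with R5020, against 5.68, 5.47 and 5.94 with EtOH. Every R5020 array lay below every EtOH array, and the R5020 arrays of both siRNAs lay in 1 range. The log2 difference was -0.57 in siCHD8 cells (SE 0.13, 0.674-fold, adjusted p = 0.0093), and it was no longer below 0.05 without siCHD8 R5020 replicate 3 (adjusted p = 0.0501). The siCt difference was -1.31 (SE 0.13, 0.405-fold, adjusted p = 5.2e-06), and it passed under all 22 alternatives, with adjusted p of at most 0.000287. The response in siCHD8 cells differed from that in siCt cells by 0.74 on the log2 scale (SE 0.19, unadjusted p = 0.00127), which did not pass over all genes (adjusted p = 0.49).

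H3C1, a gene for H3.1 on the same chromosome, had 5.07, 4.65 and 4.71 in siCHD8 cells with R5020, against 4.97, 4.93 and 4.72 with EtOH, and these groups overlapped. With siCt the values were 5.001, 4.69 and 4.29 with R5020, against 5.39, 5.46 and 5.24 with EtOH, without overlap. The log2 difference was -0.06 in siCHD8 cells (SE 0.16, adjusted p = 0.889) and -0.70 in siCt cells (SE 0.16, 0.615-fold, adjusted p = 0.0086). The siCt call held under all 22 alternatives. The difference between these responses was 0.64 (SE 0.23, unadjusted p = 0.0146, adjusted p = 0.491).

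H4C6 and H4C16, which encode histone H4, passed in siCHD8 cells and did not in siCt cells. The difference between the responses did not pass over all genes for either (adjusted p = 0.581 and 0.511). H4C6 had 3.52, 3.55 and 3.65 in siCHD8 cells with R5020, against 4.22, 4.10 and 3.78 with EtOH (log2 difference -0.46, SE 0.12, adjusted p = 0.022). The siCt cells had 3.80, 3.87 and 3.81 with R5020, against 3.84, 4.13 and 3.97 with EtOH (log2 difference -0.15, adjusted p = 0.444). The 2 siCHD8 groups did not overlap, and the siCt groups did.

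H4C16 had 2.45, 2.32 and 2.48 in siCHD8 cells with R5020, against 3.16, 3.23 and 2.75 with EtOH (log2 difference -0.63, SE 0.14, adjusted p = 0.006). Those of siCt were 2.48, 2.36 and 2.61 with R5020, against 2.58, 2.88 and 2.57 with EtOH (log2 difference -0.20, adjusted p = 0.381). Both H4 genes lie below the median of all probe sets, so their calls rest on dim probe sets. The H4C6 call was lost in 6 of 21 alternatives. Among these were the removals of siCHD8 EtOH replicate 1 or 2 or siCHD8 R5020 replicate 1 or 2 (adjusted p = 0.077 to 0.0836).

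**Figure D2:**
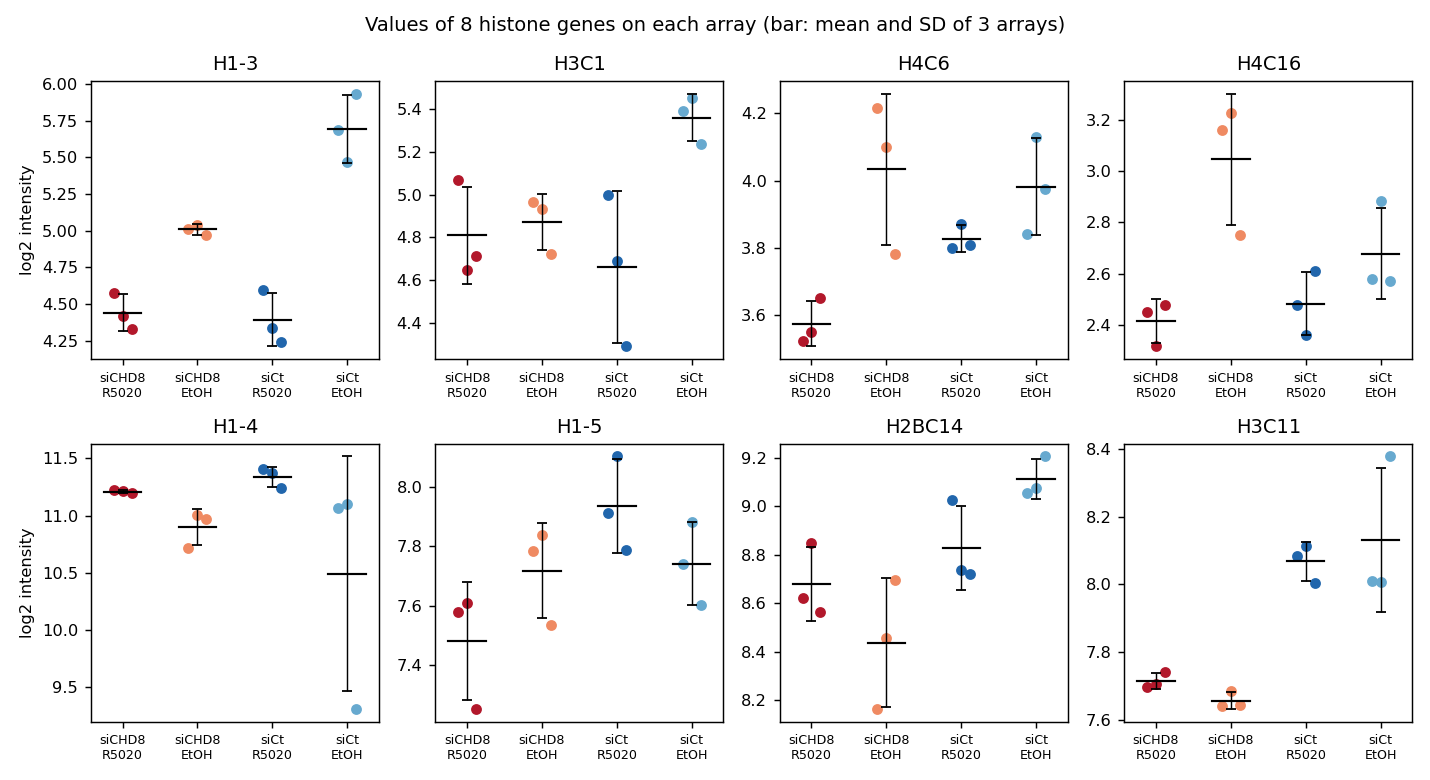
Log2 intensity of 8 histone genes on each of the 12 arrays, from left to right siCHD8 with R5020, siCHD8 with EtOH, siCt with R5020 and siCt with EtOH; points are arrays, horizontal bars are means of 3 and error bars are SDs, and the vertical scale differs between panels. H1-3 is lower with R5020 under both siRNAs, H3C11 is lower in siCHD8 under both treatments, and H1-4 has 1 siCt EtOH array at 9.31, far below the rest.

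Among the other linker histones, H1-4 was at 11.22, 11.21 and 11.20 in siCHD8 cells with R5020, against 10.72, 11.01 and 10.97 with EtOH. In siCt it was at 11.40, 11.37 and 11.24 with R5020, against 11.07, 11.10 and 9.31 with EtOH. The R5020 arrays lay above the EtOH arrays under both siRNAs, and the array at 9.31 was siCt EtOH replicate 3. The log2 differences were 0.31 (SE 0.33, adjusted p = 0.671) in siCHD8 cells and 0.85 (SE 0.33, adjusted p = 0.101) in siCt cells. Without siCt EtOH replicate 3 the siCt value was 0.25, and without siCt EtOH replicate 1 or 2 it was 1.13 and 1.15 and passed (adjusted p = 0.0416 and 0.0311).

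H1-5, another S phase linker histone, had 7.58, 7.61 and 7.25 in siCHD8 cells with R5020, against 7.78, 7.84 and 7.53 with EtOH. Values in siCt were 7.91, 8.10 and 7.79 with R5020, against 7.74, 7.88 and 7.60 with EtOH. These groups overlapped under both siRNAs, with log2 differences of -0.24 and 0.19 (adjusted p = 0.329 and 0.375). In each condition replicate 2 of H1-5 was highest and replicate 3 lowest. H1-2 had differences of 0.09 in siCHD8 cells and 0.03 in siCt cells, and H1-10, the replication-independent linker histone, of -0.21 and -0.36. The siCt value of H1-10 was -0.06 without siCt EtOH replicate 3. The testis and oocyte forms H1-6, H1-7 and H1-8 and the dim H1-1 had differences between -0.23 and 0.15, and none of these passed.

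No H2A or H2B gene was called for R5020 under either siRNA. In siCHD8 cells the 14 H2A genes lay between -0.30 and 0.28 (median -0.01) and the 16 H2B genes between -0.35 and 0.35 (median -0.01), the last value being that of the dim H2BC10 (adjusted p = 0.207). In siCt cells the H2A genes lay between -0.32 and 0.18 (median -0.10) and the H2B genes between -0.37 and 0.25 (median -0.15). The 8 H3 genes had a median of -0.01 in siCHD8 cells (-0.25 to 0.08) and of -0.15 in siCt cells (-0.70 to 0.08). H3C13, H3C14 and H3C15 have no probe set of their own and are given among the flagged results. The 13 H4 genes had a median of -0.15 in siCHD8 cells (-0.63 to 0.12) and of -0.13 in siCt cells (-0.46 to 0.13).

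The size of most differences was bounded. In siCHD8 cells the 95% interval of 50 of the 61 members lay within 1.5-fold each way (82%, against 74.8% of all probe sets), and in siCt cells that of 51 did (83.6%, against 68.8%). Groups that did not overlap were counted too: in siCHD8 cells R5020 arrays lay wholly below EtOH arrays for 8 members (14.2% of all probe sets did) and wholly above for 4 (13%). In siCt cells they lay wholly below for 13 members, or 21.3%, against 18.7% of all probe sets, and wholly above for 4, against 15.3%.

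**Figure D3:**
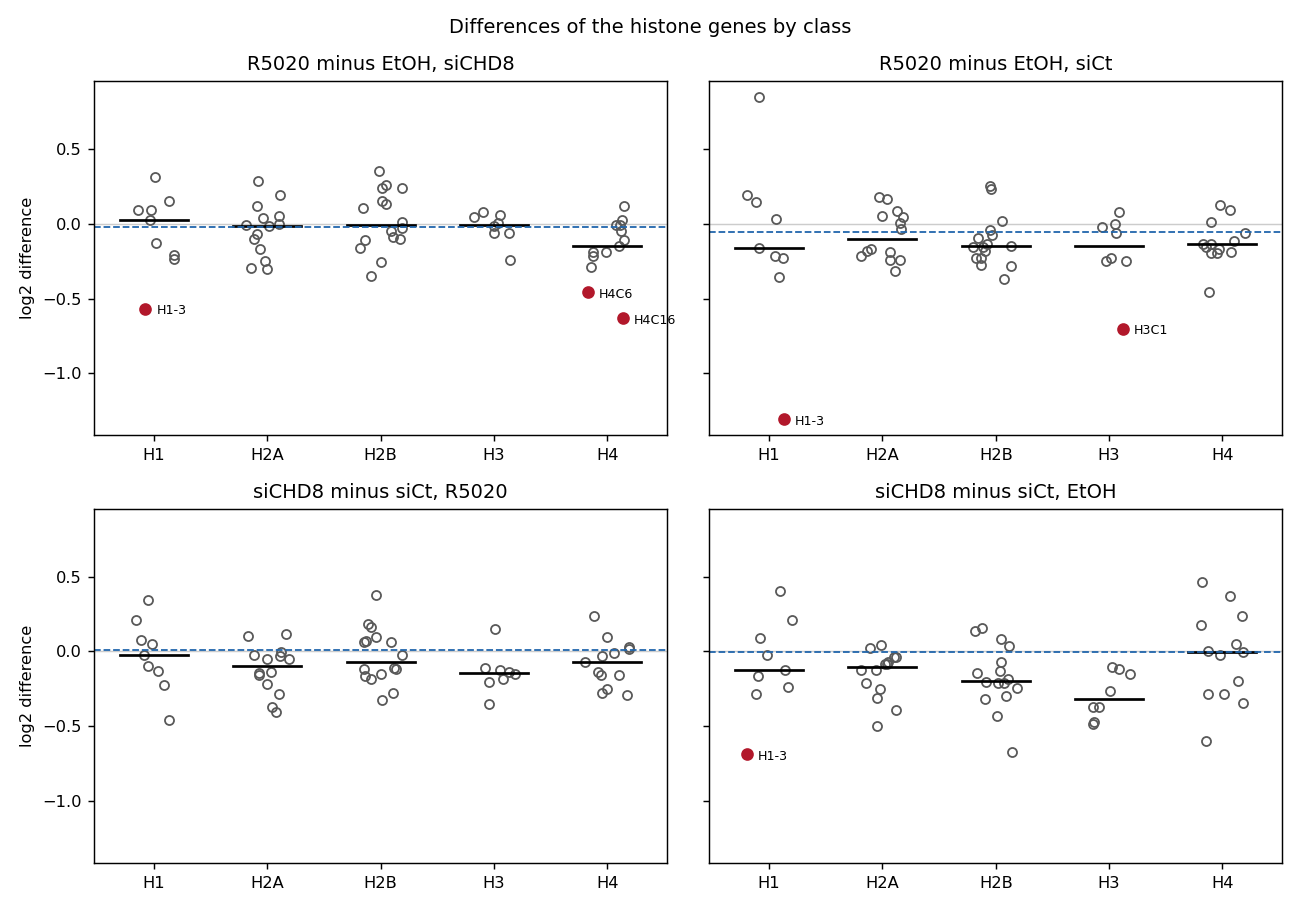
Log2 differences of the 60 histone genes by class, for R5020 minus EtOH in siCHD8 and in siCt cells (top) and for siCHD8 minus siCt with R5020 and with EtOH (bottom); each point is a gene, filled and named at an adjusted p under 0.05, short bars are class medians and the dashed line is the median of all probe sets tested. H1-3 is filled in 3 of the panels, and all 8 H3 genes lie below 0 in the panel of siCHD8 minus siCt with EtOH.

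Depletion of CHD8 lowered 1 histone gene with EtOH, H1-3, and 0 with R5020 at an adjusted p under 0.05. Few probe sets passed in all: 0.292% with EtOH (0.179% lower) and 0.189% with R5020 (0.156% lower). At the study's limits 0 members passed under either treatment (0.0471% of all with EtOH and 0.00943% with R5020). At an unadjusted p under 0.05, limma gave 9 of 61 members with R5020 (14.8%, against 13.9% of all probe sets). With EtOH it gave 16 (12.1% of all did): 14 members lower (23%, against 6.98% of all) and 2 higher, H4C8 and H4C16 (3.28%, against 5.16% of all).

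H1-3 had log2 intensities of 4.58, 4.42 and 4.33 in siCHD8 cells with R5020, against 4.59, 4.34 and 4.24 in siCt cells with R5020, and these groups overlapped (log2 difference 0.05, 95% interval -0.23 to 0.33). With EtOH it had 5.01, 5.04 and 4.97 in siCHD8 cells, against 5.68, 5.47 and 5.94 in siCt cells, without overlap. That difference was -0.69 (SE 0.13, 0.621-fold, adjusted p = 0.048). The call is at the edge: it was lost in 17 of 22 alternatives (adjusted p = 0.0169 to 0.311 over all 22), among them the removal of any array but siCt EtOH replicate 2, while the value stayed between -0.80 and -0.57. The siCt EtOH arrays serve here and in the R5020 comparison of siCt cells, so the low value of H1-3 in the 2 comparisons rests on shared arrays.

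H3C11, a gene for H3.1, had 7.70, 7.71 and 7.74 in siCHD8 cells with R5020, against 8.08, 8.11 and 8.004 in siCt cells. With EtOH it had 7.64, 7.69 and 7.64 in siCHD8 cells, against 8.01, 8.01 and 8.38 in siCt cells. No siCHD8 array reached any siCt array under either treatment. The log2 differences were -0.35 with R5020 (SE 0.11, adjusted p = 0.185) and -0.47 with EtOH (SE 0.11, adjusted p = 0.0922), which did not pass. The array at 8.38 was siCt EtOH replicate 3, and over 22 alternatives the EtOH difference ran from -0.54 to -0.34. A dimmer probe set shared by H3C11 and H3C6 differed by -0.21 with R5020, without overlap. With EtOH it differed by -0.09, and its groups overlapped.

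H2BC14, an H2B gene with the octamer shown above, had 8.62, 8.85 and 8.56 in siCHD8 cells with R5020, against 9.03, 8.74 and 8.72 in siCt cells (log2 difference -0.15, adjusted p = 0.661). With EtOH it had 8.16, 8.46 and 8.69 in siCHD8 cells, against 9.05, 9.07 and 9.21 in siCt cells (log2 difference -0.67, SE 0.14, adjusted p = 0.062). The EtOH groups did not overlap and the R5020 groups did.

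H4C3 differed by -0.29 with R5020 and by -0.60 with EtOH (adjusted p = 0.493 and 0.178), and its siCHD8 arrays lay below its siCt arrays under both treatments. With EtOH they were at 9.55, 9.56 and 8.91, against 9.70, 9.84 and 10.29 in siCt cells. Replicate 3 stood apart in each of these groups and widened the difference. Over 22 alternatives the EtOH difference of H4C3 ran from -0.72 to -0.39. H4C8 went the other way, with differences of 0.24 and 0.47 (adjusted p = 0.611 and 0.346). The 3 siCt EtOH arrays of H4C8 were at 9.40, 9.26 and 8.44, and the last of these was replicate 3 again. Without that array the EtOH difference of H4C8 was 0.17.

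Over all 61 members the median difference between siCHD8 and siCt was -0.11 with R5020, against 0.01 for all probe sets, and 42 members lay below 0 (68.9%, against 47.8%). With EtOH it was -0.14, against -0.01 for all, and 46 lay below 0 (75.4%, against 51.2%). The siCt EtOH arrays serve here and in the R5020 comparison of siCt cells, so these 2 comparisons are not independent. On those arrays the members had the highest median deviations from their means, at 0.0754, 0.155 and 0.12. The 95% interval of 45 members lay within 1.5-fold each way with R5020 (73.8%, against 81.2% of all) and that of 40 with EtOH (65.6%, against 83.8%). Under the 21 alternatives in which each median of siCHD8 against siCt was recomputed, it stayed below 0. It lay between -0.13 and -0.05 with R5020 and between -0.19 and -0.10 with EtOH.

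By class, all 8 H3 genes were below 0 with EtOH, between -0.49 and -0.11 (median -0.32), and 7 of 8 were with R5020 (median -0.15). For H2A the medians were -0.09 with R5020 and -0.10 with EtOH, for H2B -0.07 and -0.20, for H1 -0.03 and -0.13, and for H4 -0.07 and -0.01. The siCHD8 arrays lay wholly below the siCt arrays for 12 members with R5020 (15.3% of all probe sets did) and wholly above for 5 (12.3%). With EtOH they lay wholly below for 14, or 23%, against 8.06% of all, and wholly above for 1, H4C13, against 5.63%. Copies of the same gene can share signal, so these members do not count as separate observations.

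The other linker histones under depletion were H1-5, at -0.46 with R5020 (adjusted p = 0.161) and -0.02 with EtOH, and H1-2, at -0.22 and -0.28. H1-4 was at -0.13 with R5020 and at 0.41 with EtOH, and the EtOH value was -0.19 without siCt EtOH replicate 3. H1-10 was at -0.10 with R5020 and -0.24 with EtOH, and the EtOH value was 0.06 without siCt EtOH replicate 3. The germ cell forms H1-7 and H1-8 were at 0.34 and 0.21 with R5020 and at 0.09 and 0.21 with EtOH. None of these passed (adjusted p of at least 0.161).

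The R5020 response differed between siCHD8 and siCt cells for 0 of 61 members at an adjusted p under 0.05, as for 0 of all probe sets by limma (0%). At an unadjusted p under 0.05 it differed for 6 members (9.84%, against 9.56% of all). The median difference of responses was 0.07, against 0.01 for all probe sets. For 31 members the 95% interval lay within 1.5-fold each way (50.8%, against 50.3%), so larger differences of response remain possible for the other 30.

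H1-10-AS1 was at 4.20, 3.58 and 3.80 in siCHD8 cells with R5020, against 3.17, 3.48 and 4.48 with EtOH. The siCt arrays were at 3.39, 3.48 and 3.38 with R5020, against 4.04, 3.80 and 4.02 with EtOH. The siCt groups did not overlap, but the differences of 0.15 in siCHD8 cells and -0.54 in siCt cells did not pass (adjusted p = 0.807 and 0.171).

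The genes that make and handle histones were read beside the members, from 4 lists. Of all probe sets tested, R5020 raised 6.04% in siCHD8 cells and 8.1% in siCt cells, and the calls in each list are set against these shares. Of 16 measured genes for histone mRNA transcription and processing, R5020 raised 0 in siCHD8 cells and 1 in siCt cells and lowered none (medians 0.08 and 0.12). SLBP, which binds the stem-loop, was the 1 called, with log2 differences of 0.24 in siCHD8 cells (adjusted p = 0.403) and 0.52 in siCt cells (adjusted p = 0.0342); the call was lost in 8 of 22 alternatives. NPAT differed by 0.08 and 0.13. LSM10, of the U7 particle that cuts histone pre-mRNA, differed by 0.36 and 0.28, and UPF1, which takes part in histone mRNA decay, by 0.55 and 0.53, and none of these passed.

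Of 24 histone chaperones and their partners, R5020 raised 2 in siCHD8 cells and 5 in siCt cells and lowered none, against the 6.04% and 8.1% of all probe sets. NAP1L4, which carries H2A and H2B, rose by 1.75 in siCHD8 cells (adjusted p = 1.55e-07) and 1.92 in siCt cells (adjusted p = 5.08e-08). RBBP7, a histone-binding subunit of several chromatin complexes, rose by 0.72 under both siRNAs (adjusted p = 7.95e-05 and 6.31e-05). ASF1A, a chaperone of H3 and H4, and HAT1, which acetylates new H4, rose in siCt cells by 0.60 and 0.51 (adjusted p = 0.00783 and 0.0194) and had 0.39 and 0.11 in siCHD8 cells. The HAT1 call was lost in 5 of 22 alternatives.

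Of 9 measured histone genes outside the naming rule, which are mostly made throughout the cell cycle, R5020 raised 1 in siCHD8 cells and 2 in siCt cells. H3-3B, one of the genes of the replacement histone H3.3, rose by 0.50 in siCHD8 cells (adjusted p = 0.00451) and by 0.75 in siCt cells (adjusted p = 0.000116). H3-5, a near copy of it that its probes may not tell apart, rose by 0.96 in siCt cells (adjusted p = 0.00157) and had 0.29 in siCHD8 cells. H2AJ and the testis gene H3-4 had differences between -0.37 and -0.28 and did not pass.

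Of 30 measured G1/S and DNA replication genes, R5020 raised 7 in siCHD8 cells and 6 in siCt cells and lowered none (medians 0.10 and 0.22), against the 6.04% and 8.1% of all probe sets. GINS2, of the replicative helicase, rose by 1.37 in siCHD8 cells and 1.63 in siCt cells, and CCNE2, a G1/S cyclin, by 0.67 and 0.82. MCM10 rose by 0.63 in siCt cells and had 0.34 in siCHD8 cells (adjusted p = 0.0994). The other 23 genes in siCHD8 cells and 24 in siCt cells did not pass. The histone members had medians of -0.02 in siCHD8 cells and -0.15 in siCt cells, and the difference between them and this list was not tested.

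Under depletion the same 30 genes had 0 calls with R5020, but all 30 lay below 0 (median -0.34), and with EtOH 23 did (median -0.16) and CDC45, of the replicative helicase, was called lower (-0.59, adjusted p = 0.0498), a call lost in 17 of 22 alternatives. The processing list had 0 calls and medians of -0.12 and -0.03, and its lowest value was that of CPSF2, of the complex that cuts pre-mRNA, at -0.42 with R5020 (adjusted p = 0.196). The chaperone list had 0 calls and medians of -0.16 and -0.08. In it 23 of 24 genes lay below 0 with R5020 and 18 with EtOH, against 47.8% and 51.2% of all probe sets. In the processing list 11 of 16 and 9 did, and of the 9 histone genes outside the naming rule 8 and 5 did. The histone members had medians of -0.11 with R5020 and -0.14 with EtOH beside them. The part of cell cycle position in the histone values was not tested.

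**Figure D4:**
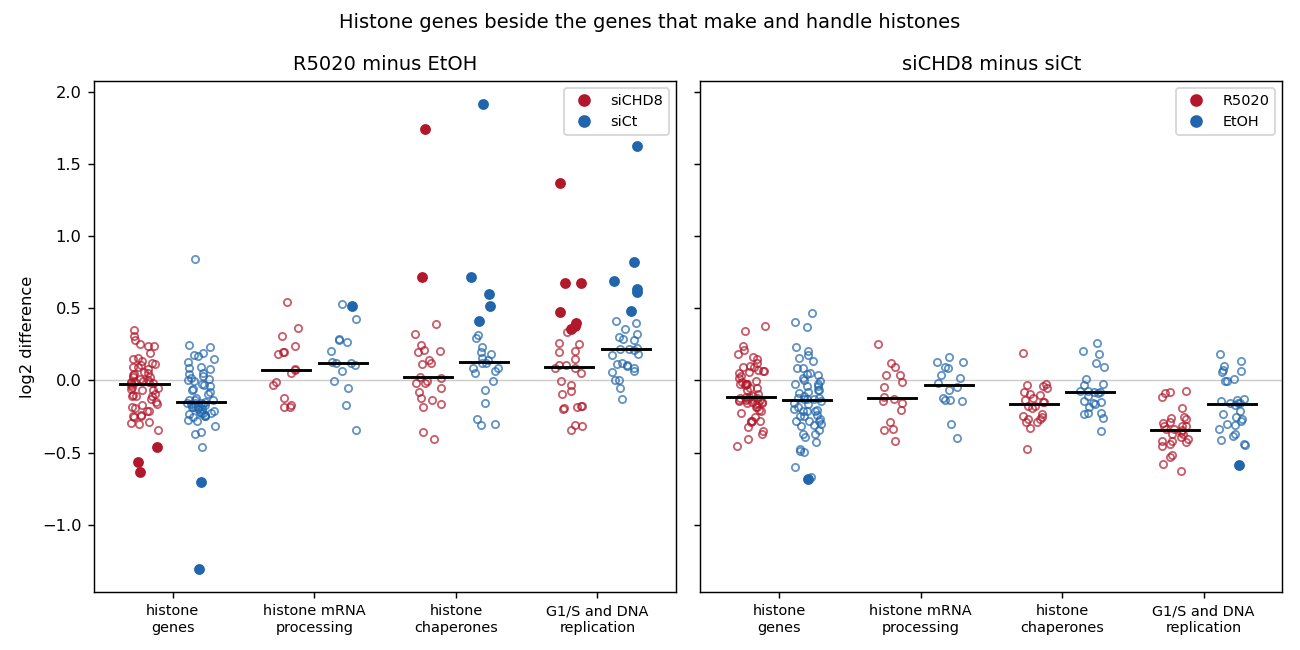
Log2 differences of the 60 histone genes beside 3 lists, for R5020 minus EtOH in siCHD8 (red) and siCt (blue) cells at left and for siCHD8 minus siCt with R5020 (red) and EtOH (blue) at right; each point is a gene, filled at an adjusted p under 0.05, and bars are medians. At left the filled points of the lists lie above 0 and those of the histone genes below it; at right the G1/S and DNA replication genes with R5020 all lie below 0 (median -0.34).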

How the data were processed

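Human Gene ST arrays were run on 12 samples, 3 for each of 4 conditions. The authors deposited a log2 intensity for each probe set, normalized by RMA (background correction, quantile normalization and probe summary). The labels and methods state neither its software version nor how probe sets were defined or filtered. No depth applies to arrays, and the 3 arrays per condition limit the precision.

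Of 33297 probe sets, the 21214 with a gene symbol were tested, and 19460 of them have exactly 1. All 61 members matched RefSeq by Entrez ID with the same symbol. A model with 1 mean per condition was fitted by limma (version 3.58.1, under R 4.3.3), with moderated variances from eBayes, and p-values were adjusted by Benjamini-Hochberg over all probe sets tested. Intervals are at 95%. The fit was tested on simulated data. Histone genes present only in probe sets with several symbols (13) were kept apart.

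Named were every called member, every H1 gene, the 3 brightest of each other class, the largest rise and fall in each contrast, CHD8, NPAT, SLBP and up to 4 genes of each list; H3C1, H3C11 and H2BC14 were followed further. The members and lists were chosen with earlier results of these data known. Alternatives were other normalizations, filters, variance models, thresholds, array weights, a replicate block and each array left out. Leaving out an array outside the compared conditions cannot move a difference and changes only its SE and p-value. Figures were drawn with Python 3.11.15 and matplotlib 3.10.9.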

Additional observations from a re-analysis of the deposited data

Results flagged for a closer look

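Members whose R5020 response differed between siCHD8 and siCt cells at an unadjusted p under 0.05 by limma are listed here, with 0 passing over all genes (adjusted p = 0.49 to 0.521). The signed log2 difference of R5020 against EtOH was higher in siCHD8 than in siCt cells for 3 genes. It was higher for H1-3 by 0.74 (limma, unadjusted p = 0.00127), for H3C1 by 0.64 (limma, unadjusted p = 0.0146) and for H2BC14 by 0.52 (limma, unadjusted p = 0.0185). H1-3 and H3C1 thus fell less with R5020 in siCHD8 cells (-0.57 and -0.06) than in siCt cells (-1.31 and -0.70). H2BC14 was at 0.24 in siCHD8 cells and at -0.28 in siCt cells. For these 3 genes every siCt EtOH array lay above every other array. The signed difference was lower in siCHD8 cells for H1-5, with a change of -0.43 (limma, unadjusted p = 0.0374), for H4C16 with -0.44 (limma, unadjusted p = 0.0397) and for H4C13 with -0.32 (limma, unadjusted p = 0.0468). H4C16 fell more with R5020 in siCHD8 cells (-0.63) than in siCt cells (-0.20). H1-5 was at -0.24 in siCHD8 cells and 0.19 in siCt cells, and H4C13 at -0.19 and 0.13.

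The 20 probe sets with several gene symbols, at least 1 of them a histone gene, entered no count or median of the report. One of them, shared by H2BC15 and H2AC15, was higher with R5020, at 4.78, 4.81 and 4.62 in siCHD8 cells, against 4.10, 4.36 and 4.21 with EtOH (log2 difference 0.51, adjusted p = 0.00633). In siCt cells it was at 4.87, 4.76 and 4.94 with R5020, against 4.24, 4.43 and 4.48 with EtOH (log2 difference 0.47, adjusted p = 0.0104). The probe set of H2AC15 alone differed by 0.19 and 0.18 and did not pass. Those shared by H3C13, H3C14 and H3C15 were higher with R5020 in siCHD8 cells, without overlap, by 0.51 to 0.56. They did not pass (limma, adjusted p = 0.064 to 0.077), and in siCt cells they differed by -0.02 to 0.07. Some of these probe sets hold the same values. Their lowest siCHD8 EtOH array was replicate 1, at 7.77, 8.31 and 8.17, against 8.40 to 9.05 on replicates 2 and 3. Over all 20 probe sets the R5020 differences ran from -0.40 to 0.56 in siCHD8 cells.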

How the results depend on the processing

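Of 220 gene results 25 were called in the main fit, and the others had no call to lose. Over 4756 recomputed values of these 220 results, 4393 kept their direction and their side of the threshold. Of the rest, 75 lost a call, 61 gained one and 227 without a call changed sign. Of the called values 0 changed sign. The members' median moved by over 1 replicate SD in 8 of 105 recomputations, and in siCHD8 cells its R5020 value turned to 0.01 with arrays centred on their median. Calls for R5020 in siCt cells (2) became 6 with the response averaged over both siRNAs, 7 at an unadjusted p under 0.05, and 2 to 4 without single arrays (4 without siCt EtOH replicate 1 or siCHD8 EtOH replicate 3). Those in siCHD8 cells (3) became 1 without dim probe sets, 1 without dim members, 1 at an adjusted p under 0.01 with a fold over 1.5, 6 with the averaged response and 8 unadjusted. Over all probe sets, siCt EtOH 3 and siCHD8 EtOH 1 stood farthest from their replicates (root mean square distance 0.303 and 0.292). For siCHD8 with EtOH the 1 call became 0 with arrays centred on their median, with all probe sets tested or with array weights. It also became 0 without both of these vehicle arrays, with only the compared conditions and at the stricter limits. It became 3 without dim probe sets, with a trended and robust variance or at an adjusted p under 0.1 (H1-3, H2BC14 and H3C11), 16 unadjusted, and 0 to 1 without single arrays (1 without siCt EtOH replicate 2, H1-3, and 1 without siCHD8 EtOH replicate 3, H2BC14). For siCHD8 with R5020 the 0 calls became 2 with array weights (H1-5 and H3C11), 1 with the averaged effect (H3C11) and 9 unadjusted. For the difference of responses 0 became 6 unadjusted. The causes were not tested. Over all probe sets, arrays with the same replicate number did not deviate together (correlations -0.25 to 0.03). Single members can depart from this, as H1-5 did, with replicate 2 highest and replicate 3 lowest in all 4 conditions. With the number as a replicate block the calls were 2 for R5020 in siCt cells, 3 in siCHD8 cells and 0 in the other comparisons, so the block ended 1 call, H1-3 for siCHD8 with EtOH (adjusted p = 0.0811). With 3 arrays per condition the median SE was 0.13 for a difference and 0.19 for a difference of responses.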
